A study of Mus musculus with 36 samples.

Results

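Creatine is made and used by a small set of genes, and 7 of them were followed here across 3 tissues of mice given an amino acid mixture or water. They were the genes whose symbol in the platform annotation was exactly Gatm, Gamt, Slc6a8, Ckb, Ckmt1, Ckmt2 or Alpl. They were measured by 9 of the 45037 probe sets tested, and the annotation held 18193 gene symbols in all. Slc6a8 and Ckmt1 had 2 probe sets each, and of each pair the probe set with the higher mean over all arrays is called the first and the other the second.

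The mice were males of the outbred ddY stock, and the labels gave no age. CAAM, a mixture of amino acids in the proportions of casein, was given at 1.8% by feeding tube to 5 mice (numbers 2, 4, 5, 6 and 7), and the 7 water mice (numbers 1 to 7) received DW, the water used as vehicle. All had 5 daily administrations of 37.5 µL per g body weight and were killed 4 h after the last one, with the food taken away before it. Liver, brown fat (BAT) and white fat (WAT) of each mouse were hybridised to an array of their own, 36 in all. The study had left out CAAM mice with an abnormal liver, so the CAAM group is a selected one.

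In the first step of creatine synthesis Gatm joins arginine with glycine, which leaves ornithine and guanidinoacetate, and in the second Gamt adds a methyl group taken from S-adenosylmethionine. Slc6a8 carries creatine into cells. Creatine kinases move a phosphate between ATP and creatine, Ckb in the cytosol, Ckmt1 in the mitochondria of many tissues and Ckmt2 in those of striated muscle. Alpl is the tissue-nonspecific alkaline phosphatase. In mouse brown fat Ckb and Alpl are known for a cycle in which creatine is phosphorylated and phosphocreatine is split again, with release of heat.

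Values are distribution free weighted (DFW) scores. Their level is on a log2-like scale, but deviations between arrays of a tissue are shrunk by a factor that differs between probe sets. Differences are therefore never folds. They stand in score units ± the standard error (SE), and the standardised difference is the same quantity over the SD within groups. The median SD of a probe set between the 12 arrays was 1.08e-05 in liver, 7.38e-06 in BAT and 1.42e-05 in WAT, so small deviations are given in thousandths of a score unit. The tissue labels fitted their defining genes. Alb, the albumin of hepatocytes, averaged 15 in liver, 6.54 in BAT and 6.98 in WAT. Ucp1, the uncoupling protein of brown adipocytes, averaged 6.27 in liver, 14.2 in BAT and 6.44 in WAT, and Lep, the leptin of white adipocytes, 6.43 in liver, 7.34 in BAT and 11.3 in WAT. Some arrays stood apart in genes of neighbouring organs. The 17 skeletal muscle markers averaged 8.22 to 9.81 in the BAT of CAAM mouse 2 and water mice 1, 3 and 7, and 6.77 to 7.23 in the BAT of the other 8 mice. The 9 epididymis markers measured averaged 9.16 in the WAT of CAAM mouse 6 and 11.45 and 10.44 in that of water mice 1 and 2, against 6.44 to 7.60 in the other WAT arrays.

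The first question was where the creatine genes are expressed. Both synthesis genes had their highest score in liver. Gamt averaged 10.44 in liver, 6.99 in BAT and 8.39 in WAT of water mice, with an SD of 6.01e-05, 3.63e-05 and 0.00401 (n = 7 each). Gatm averaged 8.33 in liver, 6.64 in BAT and 7.81 in WAT, with an SD of 0.000416, 0.00343 and 0.000854. The Gamt difference was 3.45 ± 1.9e-05 score units for liver minus BAT, 2.05 ± 0.00146 for liver minus WAT and -1.40 ± 0.00145 for BAT minus WAT (SE, n = 7 mice). For Gatm these were 1.69 ± 0.00128, 0.52 ± 0.000224 and -1.17 ± 0.00142. The SE of a tissue difference, here and below, covers only the spread of the shrunken scores between mice. It holds no shift between tissues that arose in the quantification. In BAT the Gatm score was below the array's median probe set in all 12 mice, while in liver and WAT it was above it in all 12.

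The transporter and the cytosolic kinase were ordered the other way, with their lowest or nearly lowest score in liver. Ckb averaged 7.36 in liver, 8.09 in BAT and 9.54 in WAT of water mice (SD 8.69e-05, 0.00033 and 0.00435, n = 7 each), so it was lower by 1.45 ± 0.00162 in BAT than in WAT. Its difference was -2.18 ± 0.00158 for liver minus WAT and -0.74 ± 0.000134 for liver minus BAT. Slc6a8 averaged 7.20 in liver, 8.15 in BAT and 8.01 in WAT by its first probe set, and 7.51, 8.12 and 7.50 by its second. The probe sets agreed that BAT had the highest score, but they differed over the other tissues. By the first probe set liver minus WAT was -0.80, and by the second it was 0.01. Alpl averaged 8.02 in liver, 7.19 in BAT and 6.86 in WAT, where it was below the array median in all 12 mice.

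The mitochondrial kinases had low scores. Ckmt1 averaged 6.41 in liver, 6.10 in BAT and 6.45 in WAT by its first probe set, and 6.11, 6.21 and 6.34 by its second, below the array median on all 36 arrays. The probe sets ordered the tissues differently. With arrays centred on their medians the difference of the second between BAT and WAT was -0.000286 and no longer passed (limma, adjusted p = 0.628), against -0.135 as deposited. Ckmt2 averaged 5.90 in liver and 6.09 in WAT of water mice, below the array median in all. In BAT it averaged 6.36 with an SD of 0.34 (n = 7), by far the widest spread among the members, and it passed the array median in 1 mouse. Its difference between BAT and WAT was 0.27 ± 0.12 and did not pass the test (limma, adjusted p = 0.0635). It passed under quantile normalization (0.31, adjusted p = 0.0369), with arrays centred on their medians (0.41, adjusted p = 0.0027) and with the tissues as independent groups (adjusted p = 0.0485). Without the 3 water mice highest in muscle markers it was 0.06 ± 0.00983 and passed (adjusted p = 0.00484, 4 mice). Nearly all probe sets passed in these runs (44799, 44835, 44927 and 44891 of 45037, in the order given). A pass of Ckmt2 is therefore not read as a result.

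**Figure D1:**
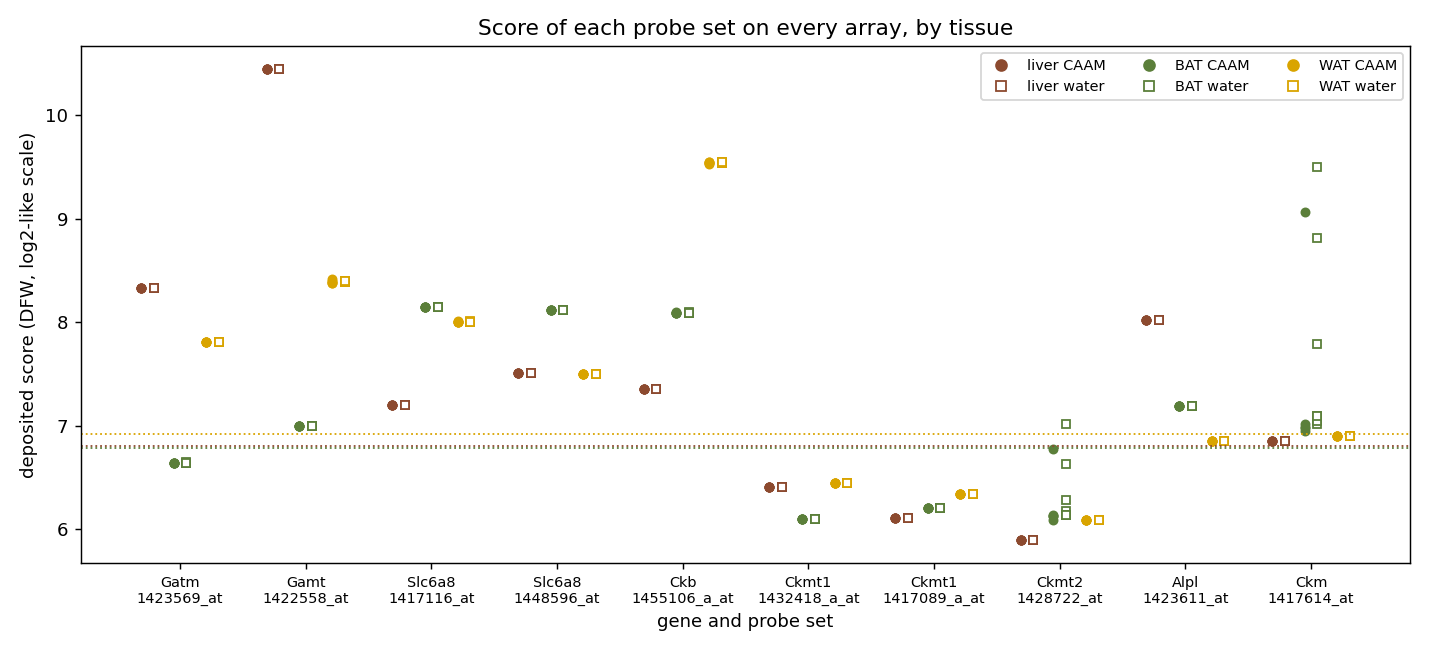
Deposited score (y axis) of each member probe set and of Ckm, the muscle creatine kinase, on every array (x axis, gene and probe set), with CAAM mice as filled circles left of water mice as open squares, and dotted lines at the middle of the range of array medians of each tissue. The spread between mice is smaller than the symbols except for Ckmt2 and Ckm in BAT, where Ckmt2 reached 6.77 in 1 CAAM mouse and 7.02 in 1 water mouse.

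The limma test of the tissues, which used each mouse as its own control, has little use here. It called 99.7% of all probe sets for BAT minus WAT, 99.8% for liver minus WAT and 99.9% for liver minus BAT. It called 8 of the 9 member probe sets for BAT minus WAT and all 9 for each of the others, and nothing is read from these counts. Whether the tissues were quantified in 1 run is not stated, and a shift between runs cannot be told apart from a tissue difference. The median of all probe sets was -0.09 for BAT minus WAT, -0.05 for liver minus WAT and 0.02 for liver minus BAT.

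A difference of at least 1 score unit was rarer. For BAT minus WAT it was met in the lower direction by Gatm, Gamt and Ckb, 3 of 9 member probe sets, where 4.9% of all probe sets met it, and in the higher direction by 0 of 9, against 1.77%. For liver minus WAT, Gamt and Alpl were higher by at least 1 unit (3.96% of all probe sets) and Ckb was lower (8.34%). For liver minus BAT, Gatm and Gamt were higher (5.02%) and 0 of 9 were lower (4.59%). The Gamt difference for liver minus BAT was larger than that of 98.7% of all probe sets, and the Ckb difference for BAT minus WAT than that of 97.3%.

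Genes that supply arginine and methyl groups, together with genes that use them, are set beside the members. Of 11 genes of arginine and ornithine metabolism, 6 were higher by at least 1 unit in liver than in WAT and 1 was lower, and 9 were higher in liver than in BAT and 0 lower. By the lowest p these were led by Arg1, which splits arginine into urea and ornithine (7.67 units for liver minus WAT), Otc (7.41) and Cps1 (7.32), enzymes of the urea cycle. Of 11 measured genes of methyl supply and use, 7 were higher by at least 1 unit in liver than in WAT and 1 was lower. The same counts held against BAT. Among them Gnmt, which methylates glycine, differed by 7.17 units for liver minus BAT and Ahcy, which removes S-adenosylhomocysteine, by 4.81. Of 10 other measured genes of the creatine system (Ckm, a creatine exporter, porins, ADP/ATP carriers and adenylate kinases), 2 were higher and 3 lower by at least 1 unit in liver than in BAT. Slc25a4, an ADP/ATP carrier of the inner mitochondrial membrane, differed by -4.46 for liver minus BAT and by -4.25 for liver minus WAT. Of 7 measured genes of phosphate release, pyrophosphate and phosphate transport, 2 were higher and 1 lower by at least 1 unit in liver than in BAT, and 0 in either direction against WAT.

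The second question was whether CAAM changed these genes. The limma fit called 0 of the 9 member probe sets in liver, BAT or WAT, and 0% of all probe sets in each tissue. At an unadjusted p under 0.05 there were 3047 probe sets in liver, 2886 in BAT and 1784 in WAT, with 1 member probe set among them, Alpl in liver. The groups overlapped for every member in every tissue, and did not overlap for 0.442% of all probe sets in liver, 0.329% in BAT and 0.222% in WAT. The study's own test, rank products, ranks the differences between all 35 pairs of arrays without regard to the spread of a probe set, and its threshold is an expected 0.05 of calls being false. It called 5 member probe sets, Gatm and Alpl higher in liver, Gatm higher and Ckmt2 lower in BAT, and Gamt lower in WAT. Over all probe sets it called 1.62% higher and 1.18% lower in liver, 1.19% and 2.05% in BAT, and 0.793% and 1.98% in WAT. The members it called had wide spreads, at the 97.3rd percentile of SD for Alpl and the 96.3rd for Gatm in liver, the 98.8th for Gatm and the 99.9th for Ckmt2 in BAT, and the 98.3rd for Gamt in WAT. With the differences divided by the SD before ranking, 0 members were called in any tissue. The calls below are those of rank products.

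Alpl in liver lay 1.10, 0.662, -0.515, 1.29 and 2.16 thousandths of a score unit from the water mean in CAAM mice 2, 4, 5, 6 and 7, against -0.0959, 0.935, -0.679, 0.0637, -0.287, 0.105 and -0.0427 in water mice 1 to 7. CAAM mice 2, 6 and 7 were above all water mice, CAAM mouse 4 was above all but water mouse 2, and CAAM mouse 5 was below all but water mouse 3. The difference was 0.94 ± 0.412 thousandths, a standardised difference of 1.29 (limma, adjusted p = 0.728), and the estimated share of false positives was 0.0108. The call was lost without CAAM mouse 2, 6 or 7. In BAT and WAT Alpl was not called, with standardised differences of -0.97 and -1.18. The difference of the CAAM effect between liver and BAT was 0.951 ± 0.409 thousandths and that between liver and WAT 0.948 ± 0.415, and neither passed (adjusted p = 0.802 and 0.896).

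Gatm in liver lay 0.213, 0.568, 1.23, -0.322 and 0.676 thousandths from the water mean in CAAM mice 2, 4, 5, 6 and 7, against -0.0868, 0.541, 0.384, -0.474, 0.34, -0.389 and -0.315 in water mice 1 to 7. CAAM mice 4, 5 and 7 were above all water mice. The difference was 0.474 ± 0.276 thousandths (standardised 0.97, limma adjusted p = 0.789), and the share of false positives, 0.0487, was just under the threshold. The call was lost without CAAM mouse 2, 4, 5 or 7, without water mouse 1, 4, 6 or 7, under quantile normalization and with dim probe sets left out. The 8 macrophage markers all had a higher mean in CAAM livers, and their summary score averaged 0.61 ± 0.93 in CAAM livers and -0.44 ± 0.5 in water livers (SD, n = 5 and 7). The 6 endothelial markers also all had a higher mean in CAAM livers, with a score of 0.43 ± 0.16 in CAAM livers and -0.31 ± 0.77 in water livers. The part of either list in the Gatm result was not tested.

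In BAT Gatm lay 1.72, -1.05, 2.32, -2.51 and 1.77 thousandths from the water mean in CAAM mice 2, 4, 5, 6 and 7, against -0.779, -1.92, -0.998, -3.75, 0.0588, 7.16 and 0.238 in water mice 1 to 7. The highest and the lowest value both belonged to water mice. The difference was 0.452 ± 1.69 thousandths (standardised 0.15, limma adjusted p = 0.988). The call, at a share of 0.0484, held only without CAAM mouse 6 or water mouse 5 or 6 among the runs that left out 1 mouse, and the difference was -0.00025 score units without the 4 arrays high in muscle markers, where it was not called. In WAT Gatm was not called, at a standardised difference of -0.13.

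Gamt in WAT lay 8.18, -10.2, -3.05, 27.5 and -13.5 thousandths from the water mean in CAAM mice 2, 4, 5, 6 and 7, against 4.33, -1.71, 0.835, 1.66, -6.52, -3.03 and 4.44 in water mice 1 to 7. The CAAM mice spread to both sides of the water mice, with an SD of 16.6 thousandths against 4.01. The mean difference was positive, 1.78 ± 6.25 thousandths (standardised 0.16, limma adjusted p = 1), although rank products called the gene lower at a share of 0.0276. CAAM mouse 6, the highest, was also the CAAM mouse highest in epididymis markers. Water mice 1 and 2 were higher still in these markers (11.45 and 10.44). Their Gamt, at 4.33 and -1.71 thousandths, lay within the range of the other water mice. An earlier analysis of these data had set apart 4 WAT arrays for genes of the male tract. They were those of CAAM mice 6 and 7 and water mice 1 and 2, with CAAM mouse 7 at 7.23 for the epididymis markers. Without these 4 arrays the call was lost and the difference was -0.00116 score units. The part of the male tract genes in the Gamt result was not tested. Without CAAM mouse 6 the difference was -0.00463. The call was lost without CAAM mouse 4, 5 or 7 or water mouse 1, 2, 3, 4 or 7. In liver and BAT Gamt stood at standardised differences of -0.75 and -0.13 and was not called.

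The remaining members gave no call. The standardised difference of Ckb was 1.11 in liver, where CAAM mouse 2 alone of the 5 lay below the water mean, -0.12 in BAT and -0.15 in WAT, and that of Slc6a8 was 0.54, 0.27 and -0.31 by its first probe set and 0.46, 0.19 and 0.14 by its second. Without CAAM mouse 5, and again without CAAM mouse 7, rank products called Ckb and Slc6a8 lower in WAT. The 2 probe sets of Ckmt1 stood at -0.93 and -1.08 in liver, -0.09 and 0.26 in BAT, and 0.05 and 0.16 in WAT. Ckmt2 stood at 0.06 in liver and 0.05 in WAT. The test of the CAAM effect between tissues called 0 of 9 member probe sets, and 0% of all probe sets, for each pair of tissues.

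**Figure D2:**
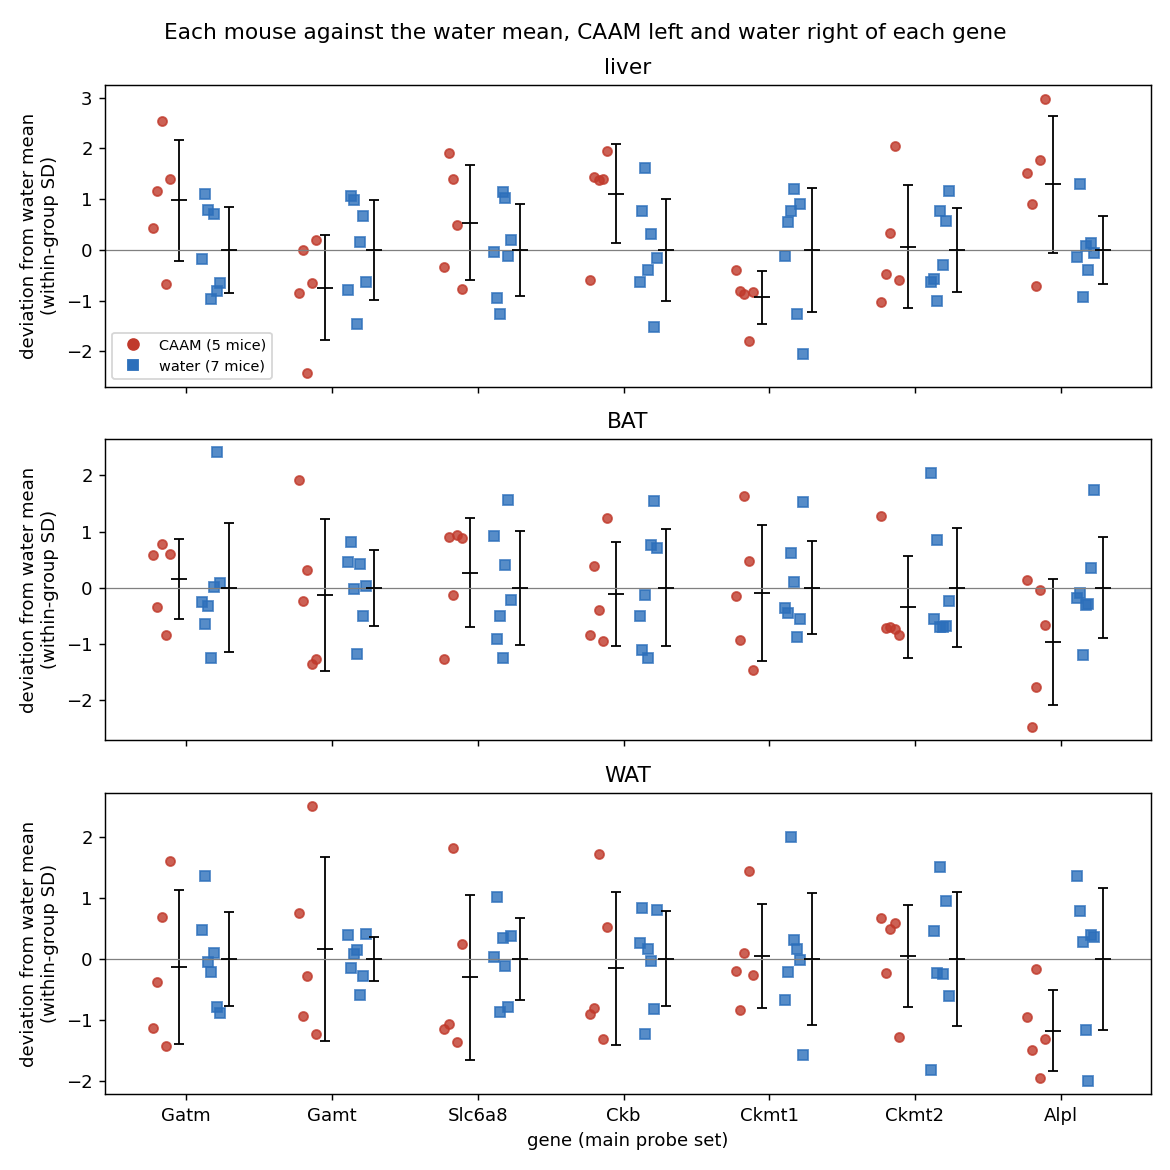
Deviation of each mouse from the water mean of its tissue, in within-group SD (y axis), for the main probe set of each gene (x axis), with CAAM mice as circles left of water mice as squares and bars for the mean ± SD of each group. The groups overlap for every gene and tissue, and the largest standardised difference plotted is 1.29, for Alpl in liver.

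Of the genes of the wider pathway, rank products called Slc16a12, which exports creatine, higher and Ak4, a mitochondrial adenylate kinase, lower in CAAM livers, 1 of 10 in each direction. Over all probe sets it called 1.62% higher and 1.18% lower in liver. As for the members, these calls take no account of the spread of a probe set. Calls of the listed genes after division by the SD were not examined. Of 11 genes of arginine and ornithine metabolism rank products called 3 higher and 0 lower in liver. They were Ass1, the argininosuccinate synthase (0.452 thousandths of a score unit, limma, adjusted p = 0.682), Arg2, the mitochondrial arginase (0.756, adjusted p = 0.72), and Slc7a2, a transporter of cationic amino acids (1.85 thousandths). The median standardised difference of the 11 genes in liver was 0.37, against -0.09 over all probe sets, and of the 11 genes of methyl supply and use -0.07. Nnmt, which uses methyl groups to methylate nicotinamide, was the 1 gene of that list called in liver, higher by 674 thousandths (standardised 1.24, limma, adjusted p = 0.736). In BAT rank products called 2 of the 10 other creatine genes lower, Ckm and Ak1, the adenylate kinase of muscle cytosol, and 0 higher. Over all probe sets it called 2.05% lower and 1.19% higher there. Ckm is 1 of the 17 skeletal muscle markers, all of which had a lower mean in CAAM BAT. In that tissue Ppa1, a pyrophosphatase, was called higher and Slc20a2, a phosphate transporter, lower. In WAT Arg2 was called in both directions and Bhmt, which remethylates homocysteine, lower, where 0.793% of all probe sets were called higher and 1.98% lower. The median of the 7 phosphate genes in BAT was -0.59. The list medians were -0.20 for the other creatine genes in BAT and 0.24 in WAT, against -0.01 and 0.01 over all probe sets.

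Within both groups the mice differed, most widely for Ckmt2 in BAT. Ckmt2 scored 6.77, 6.13, 6.14, 6.12 and 6.09 in the BAT of CAAM mice 2, 4, 5, 6 and 7, against 7.02, 6.18, 6.64, 6.14, 6.14, 6.14 and 6.28 in that of water mice 1 to 7. Ckm, the cytosolic creatine kinase of skeletal muscle, scored 9.06, 7.02, 6.98, 6.98 and 6.95 in the same CAAM mice and 9.50, 7.10, 8.82, 7.02, 7.05, 7.10 and 7.79 in the water mice. Ckm is 1 of the 17 muscle markers, and Ckmt2 is not. Both genes were highest in CAAM mouse 2 and water mice 1, 3 and 7, the 4 mice highest in skeletal muscle markers, and water mouse 7 lay between the other 3 and the remaining 8. Over the 12 mice Ckmt2 correlated with the muscle markers at r = 0.98 and rho = 0.89 (permutation tests, p = 1e-05, the smallest possible, and 0.00021, adjusted p = 0.00126 and 0.0265 over 252 relations of members with each other and with marker lists in the 3 tissues). It was 0.98 without the 2 mice farthest from the median of Ckmt2 and 0.64 in the 8 mice lowest in muscle markers, so that its size rests on the 4 highest. The 3 genes most like Ckmt2 over the 12 mice were Mlf1, Ldb3 and Cox6a2, each at r = 0.998, a value that spans the same 4 mice. Ldb3, a protein of the muscle Z disc, and Cox6a2, the muscle form of a cytochrome oxidase subunit, are genes of striated muscle. More muscle tissue in a sample and more Ckmt2 RNA per cell cannot be told apart in these bulk samples.

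Rank products called Ckmt2 lower in CAAM BAT. The difference was -0.11 ± 0.18 score units (standardised -0.34, limma adjusted p = 0.972), with 1 of 5 CAAM mice and 3 of 7 water mice among the 4 highest in muscle markers. It was -0.24 without CAAM mouse 2 and -0.000506 without water mouse 1. Without those 4 arrays it was -0.03 ± 0.0142 (adjusted p = 0.861), and rank products still called it lower. In these 8 mice Ckmt2 lay at 6.13, 6.14, 6.12 and 6.09 in CAAM mice and at 6.18, 6.14, 6.14 and 6.14 in water mice. The muscle markers averaged 7.05, 6.84, 6.80 and 6.77 in the same CAAM mice and 7.23, 6.94, 7.13 and 7.15 in the water mice. All 17 muscle markers had a lower mean in CAAM BAT than in water BAT. Their part in the Ckmt2 result was not tested.

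**Figure D3:**
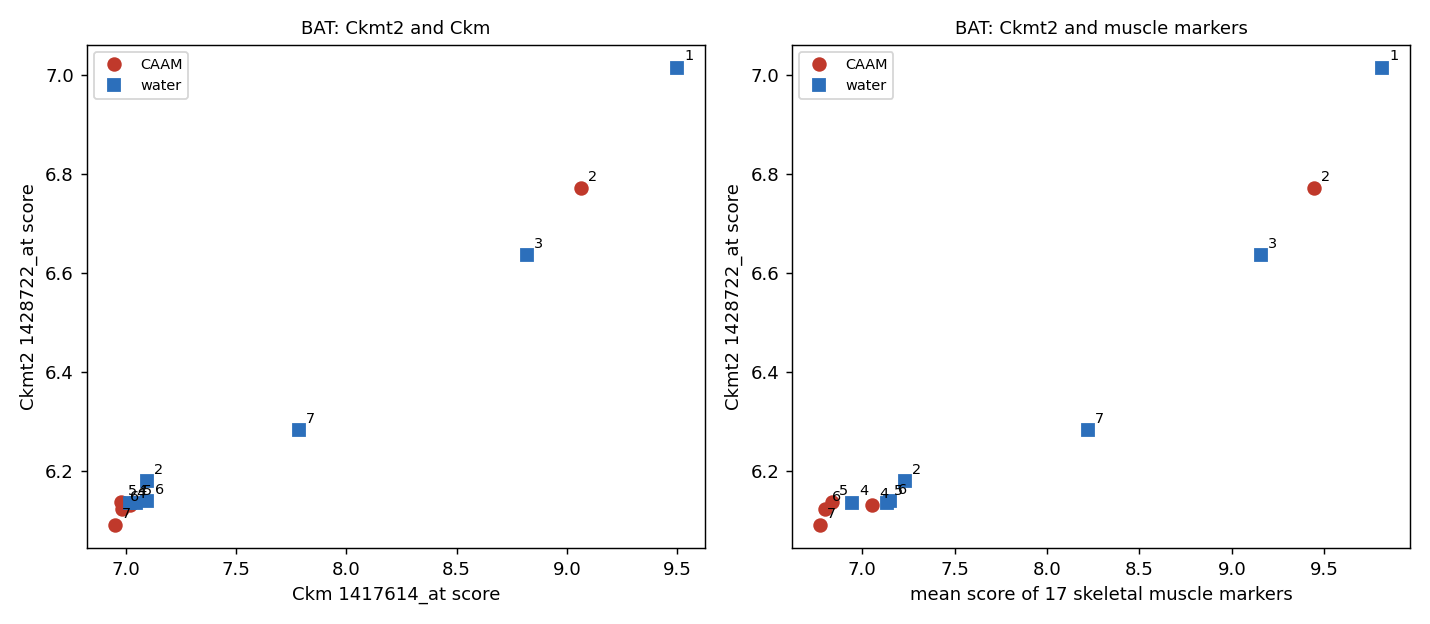
Ckmt2 score in BAT (y axes) against the score of Ckm (left) and the mean score of the 17 skeletal muscle markers (right), 1 point per mouse with its number, CAAM as circles and water as squares. CAAM mouse 2 and water mice 1, 3 and 7 are the 4 highest in each panel, and the other 8 mice lie between 6.09 and 6.18 for Ckmt2.

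The promoters of both kinases that were high in the same BAT arrays are shown with that of Ckb, the cytosolic kinase that was not, from 250 bases before to 50 after the start of the gene (RefSeq, GRCm38.p6). Of the 7 members, 6 had an entry among the promoters used. Capitals mark CANNTG, the E-box core bound by the muscle factors of the MyoD family, and TATAA and CCAAT, core promoter motifs, on either strand. No 2 of the motifs overlapped. The Ckb promoter is at chr12:111672289-111672588 on the minus strand, that of Ckmt2 at chr13:91876836-91877135 on the minus strand and that of Ckm at chr7:19410844-19411143 on the plus strand.
Ckmt2: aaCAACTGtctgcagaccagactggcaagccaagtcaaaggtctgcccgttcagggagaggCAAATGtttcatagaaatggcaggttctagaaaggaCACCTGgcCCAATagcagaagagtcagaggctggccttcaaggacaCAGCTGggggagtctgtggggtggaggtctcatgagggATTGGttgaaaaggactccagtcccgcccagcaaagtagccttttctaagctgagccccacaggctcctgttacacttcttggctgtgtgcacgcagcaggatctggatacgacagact
Ckm: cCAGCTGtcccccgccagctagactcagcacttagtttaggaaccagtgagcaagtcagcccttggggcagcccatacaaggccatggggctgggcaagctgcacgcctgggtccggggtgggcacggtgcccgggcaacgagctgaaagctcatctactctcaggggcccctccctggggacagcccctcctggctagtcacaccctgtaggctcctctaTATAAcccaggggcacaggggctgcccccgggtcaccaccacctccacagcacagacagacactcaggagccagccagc
Ckb: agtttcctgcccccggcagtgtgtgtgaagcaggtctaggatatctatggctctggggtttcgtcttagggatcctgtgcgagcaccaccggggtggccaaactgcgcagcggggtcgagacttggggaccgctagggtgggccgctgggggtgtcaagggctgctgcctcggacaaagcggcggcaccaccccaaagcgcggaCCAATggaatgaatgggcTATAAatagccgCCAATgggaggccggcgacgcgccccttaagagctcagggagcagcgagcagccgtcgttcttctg
Positions are those of the first base, with 1 as the first base of the gene. The Ckmt2 promoter held CANNTG at 4 places (-248, -189, -153 and -107), that of Ckm at 1 (-249) and that of Ckb at 0, and 72.3% of 32851 promoters of this length held at least 1. TATAA stood at -29 in Ckm and at -28 in Ckb and at 0 places in Ckmt2, and 24.9% of promoters held it. CCAAT stood at 2 places in Ckmt2 (-145, and -69 on the opposite strand) and 2 in Ckb (-46 and -16), at 0 in Ckm, and in 37.4% of promoters.

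Ckb and Slc6a8 varied together in WAT. Ckb lay -5.07, -4.47, 9.63, -7.30 and 2.97 thousandths of a score unit from the water mean in the WAT of CAAM mice 2, 4, 5, 6 and 7, against 1.51, 4.70, -6.87, 0.906, -0.186, -4.57 and 4.51 in water mice 1 to 7. Slc6a8 (first probe set) lay -2.13, -1.97, 3.35, -2.52 and 0.457 thousandths from it in the CAAM mice, against 0.0493, 1.87, -1.59, 0.629, -0.2, -1.44 and 0.681 in the water mice. CAAM mouse 5 was highest and CAAM mouse 6 lowest in both. The correlation over the 12 mice was r = 0.97 and rho = 0.94 (permutation tests, p = 1e-05, the smallest that 100000 permutations can give, and 3e-05, adjusted p = 0.00126 and 0.00756 over the same 252 relations). It was 0.94 without the 2 mice farthest from the median of Slc6a8, 0.94 in the 7 water mice alone and 0.97 with group means removed. In BAT the same pair correlated at r = 0.64 (adjusted p = 0.308) and in liver at r = 0.01 (adjusted p = 0.996). Ckb ranked 17th in likeness to Slc6a8 in WAT among 34943 other probe sets with a symbol.

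The genes most like Ckb in WAT were Corin (r = 0.989), Ccdc153 (0.984) and Cdhr4 (0.982). A list of 18 genes of motile cilia was then drawn up, after these values had been seen, and gets no test. Its summary score correlated at r = 0.92 with Ckb and at r = 0.94 with Slc6a8 in WAT, and was highest in CAAM mouse 5 (1.51) and water mouse 2 (1.40). The mean score of the list ran from 6.44 to 6.50 in CAAM WAT and from 6.44 to 6.49 in water WAT, and 17 of the 18 genes were below the array median on every WAT array. With the epididymis markers Ckb and Slc6a8 correlated at r = -0.08 each. Without the 4 WAT arrays set apart for genes of the male tract, Ckb and Slc6a8 correlated at r = 0.97 in the other 8. The part of ciliated cells in the relation was not tested.

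**Figure D4:**
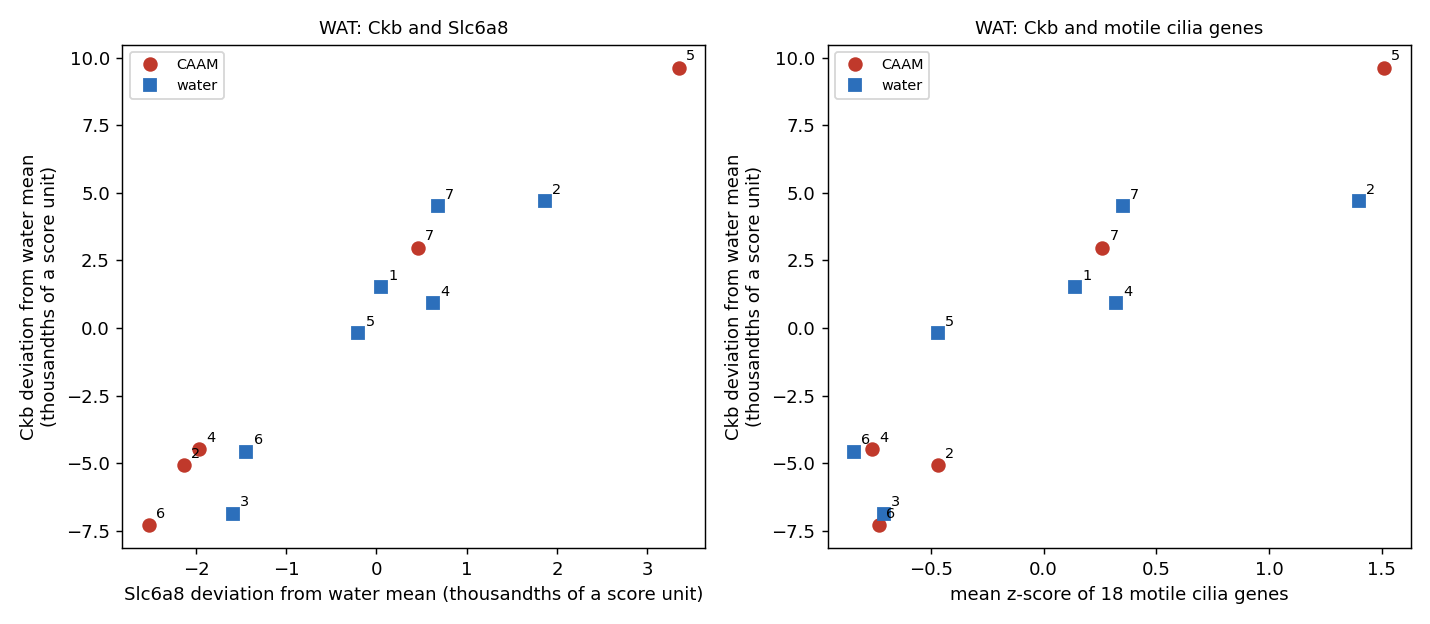
Deviation of Ckb from the water mean in WAT, in thousandths of a score unit (y axes), against that of Slc6a8 (left) and against the mean z-score of 18 motile cilia genes (right), 1 point per mouse with its number, CAAM as circles and water as squares. CAAM mouse 5 is highest in both panels, and mice of both groups lie along the same line.

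Of the relations of Gatm and Ckb with the 8 macrophage markers, that of Gatm in liver and that of Ckb in BAT passed by r, and 0 passed by rho. Gatm correlated with the summary score of the 8 markers at r = 0.82 and rho = 0.73 in liver (permutation tests, p = 0.00071 and 0.00873, adjusted p = 0.0469 and 0.214), at r = 0.84 in BAT (adjusted p = 0.0851) and at r = 0.58 in WAT (adjusted p = 0.348). Without the 2 mice farthest from the median of Gatm, r was 0.74 in liver and 0.33 in BAT, where the relation thus rests on those mice. Ckb correlated with the same score at r = 0.75 and rho = 0.79 in BAT (permutation tests, p = 0.00093 and 0.00321, adjusted p = 0.0469 and 0.202) and 0.76 without the 2 farthest mice, and at r = 0.75 in liver (adjusted p = 0.0728). Among the water mice alone r was 0.63 for Gatm in liver, 0.98 for Gatm in BAT and 0.90 for Ckb in BAT. The 2 mice farthest from the median of Gatm in BAT were both water mice, so the 0.98 includes them. Gatm in liver also correlated with the endothelial markers at r = 0.78 and rho = 0.76 (permutation tests, adjusted p = 0.0508 and 0.214). It was 0.76 without the 2 farthest mice and 0.93 in the water mice. With arrays centred on their medians it was 0.15, and 0.79 for the macrophage markers. Centring also took Ckmt1 with Ckmt2 in liver from r = -0.37 to 0.98, so no order of the lists is read from the centred values. In BAT the white adipocyte markers correlated at r = 0.74 with Gatm (adjusted p = 0.143, 0.90 in the water mice) and at r = 0.54 with Ckb (adjusted p = 0.468, 0.91 in the water mice). Whether one list is closer to these genes than another was not tested. Water mouse 6, the highest in Gatm among BAT arrays, had the highest macrophage score there, 2.07, and CAAM mouse 5, the highest in Gatm among livers, had the highest liver score, 2.13. Gatm and Ckb correlated with each other at r = 0.65 in liver, 0.69 in BAT and 0.64 in WAT, none of which passed (adjusted p = 0.308, 0.174 and 0.308). Of the 252 relations 5 passed by r and 2 by rho. The 1 passing pair not yet named, Gatm with the epididymis markers in BAT (r = -0.85, adjusted p = 0.0469), had all 9 markers below the array median on every array and was -0.50 without the 2 farthest mice. The fifth was Ckmt2 with muscle markers in BAT.

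**Figure D5:**
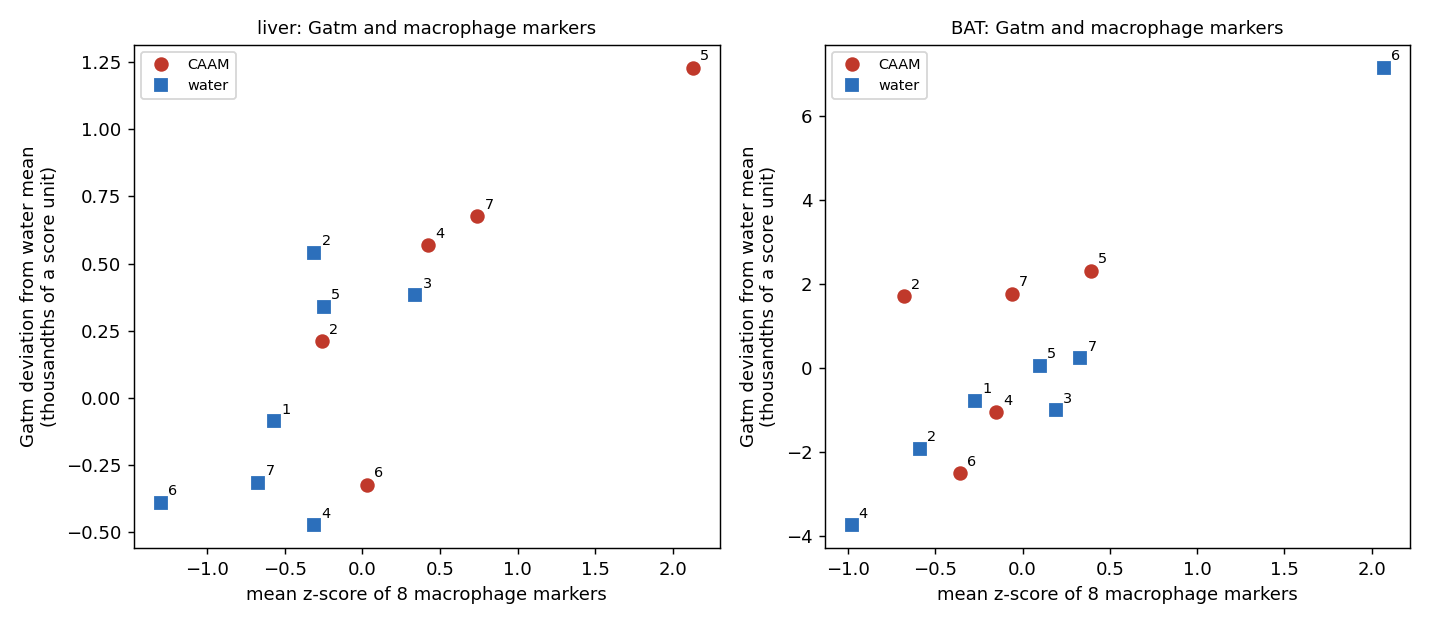
Deviation of Gatm from the water mean, in thousandths of a score unit (y axes), against the mean z-score of 8 macrophage markers (x axes) in liver (left) and BAT (right), 1 point per mouse with its number, CAAM as circles and water as squares. CAAM mouse 5 is highest in liver, and water mouse 6 stands apart in BAT at 7.16 thousandths.

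For the other members the most alike genes, each in the tissue where the member scored highest, were less close. For Gatm in liver they were Pcolce2 (r = 0.933), Adgrl4 (0.915) and Gpr35 (0.914), and for Gamt in liver Rps15 (0.924), Sod1 (0.892) and Gm16364 (0.887). For Slc6a8 in BAT they were Kif16b (0.923), Rasl11b (0.916) and Aldh2 (0.904), for Ckmt1 in WAT Pibf1 (0.897), Fanci (0.874) and Adam33 (0.861), and for Alpl in liver Dpp8 (0.951), Ttc3 (0.924) and Cnot6l (0.922). These were picked as the highest among all probe sets with a symbol and describe the 12 mice of each tissue.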

How the data were processed

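Affymetrix mouse genome arrays were hybridised with RNA of liver, BAT and WAT of 5 CAAM and 7 water mice. The deposited values are DFW scores, which the authors computed in R (version 2.7.2 per the submission notes), and were used as deposited. Of 45101 rows 64 controls were left out. The platform annotation gave 1 symbol for 34945 probe sets, several for 932 and none for 9160.

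CAAM was compared with water within each tissue by rank products (100 permutations, 20 for alternatives), as in the study, and by limma 3.58.1 (R 4.3.3) with Benjamini-Hochberg adjustment over all 45037 probe sets. Tissues were compared by limma on differences within water mice. A limma p-value weighs a difference against the spread between mice, and the number of arrays limits the precision. Rank products does not weigh that spread, since its permutations shuffle the probe sets within each array. Marker lists were summarised as mean z-scores over the 12 mice. Scripts were tested on simulated data.

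All probe sets of the 7 genes were named, with up to 3 genes a list by lowest p. Genes of the lists called by rank products were named after their values were seen. Members and lists were chosen with earlier results of these data known. Normalization, filters, weights, blocks and left-out mice were varied.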

Additional observations from a re-analysis of the deposited data

Results flagged for a closer look

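In 6 of 66 groups of 5 or 7 mice, 1 mouse lay far from the others, where chance gives about 1 in 20. The groups include those of Ckm, which is not a member and gave as many of these flags as the members did. Several flags come from the same BAT array of CAAM mouse 2, so no excess over chance is read from the count. The number given is the gap to the nearest mouse as a share of the group's range. CAAM mouse 2 was highest in BAT for Ckmt2 (0.931) and for both probe sets of Ckm (0.968 by the first and 0.787 by the second), and its BAT was also the highest of the CAAM mice in muscle markers, at 9.44. Water mouse 6 was highest for Gatm in BAT (0.634), with the highest macrophage score there, 2.07. CAAM mouse 2 was lowest for Ckb in liver (0.775), and CAAM mouse 6 for Ckm (second probe set) in WAT (0.765).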

How the results depend on the processing

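Of the CAAM calls by rank products, quantile normalization left 1 member probe set in liver (Alpl), 1 in BAT (Ckmt2) and 0 in WAT, and the filter on dim probe sets left 1 (Alpl), 0 and 1. In BAT that filter removed Gatm and Ckmt2 themselves, which are dim there, so it did not test their calls. Dividing by the SD left 0 in each tissue. Without the 4 BAT arrays highest in muscle markers 1 remained (Ckmt2), and without the 4 WAT arrays set apart for male tract genes 0. With 1 mouse left out the count ran from 0 to 2 in liver, 1 to 2 in BAT (Ckmt2 each time) and 0 to 2 in WAT, and limma called 0 each time. With at least 1 score unit also required, limma called 3 for BAT minus WAT, 3 for liver minus WAT and 2 for liver minus BAT, and with 1 mouse left out and no such limit 8, 9 and 9. Over all probe sets rank products called 730 higher and 530 lower in liver, 538 and 924 in BAT and 357 and 893 in WAT, and after division by the SD 124 and 156, 190 and 106, and 68 and 60. One limma fit of the 36 arrays called 399 probe sets in liver, 163 in BAT and 343 in WAT, with 0 members, against 0 in the fits by tissue.

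The differences between CAAM and water, in score units, changed sign for some members with the setting, and the cause was not tested. Centring shifted most probe sets of the array and not the members alone. After it 98.5% of all differences were positive in BAT, 4.35% in liver and 96.6% in WAT. Their medians were 0.000373, -0.000108 and 0.000317. Under quantile normalization 96.7% were positive in BAT, 20.4% in liver and 67.6% in WAT. Under quantile normalization the difference turned sign, in liver -0.000174 for Slc6a8 (first probe set), -0.000131 for Slc6a8 (second probe set), -3.26e-05 for Ckb and -1.64e-05 for Ckmt2, and in BAT 0.000475 for Gamt, 0.000448 for Ckb, 0.000234 for Ckmt1 (first probe set) and 0.00103 for Alpl, and in WAT -5.41e-05 for Ckmt1 (second probe set) and 2.69e-05 for Alpl. With arrays centred on their medians the difference turned sign, in liver -8.47e-05 for Slc6a8 (first probe set), -0.000102 for Slc6a8 (second probe set), -1.25e-05 for Ckb and -0.000107 for Ckmt2, and in BAT 0.000366 for Gamt, 0.000336 for Ckb, 0.000372 for Ckmt1 (first probe set) and 0.000361 for Alpl, and in WAT 0.000169 for Gatm and 0.000308 for Alpl, and for liver minus WAT 0.0722 for Ckmt1 (first probe set). With array weights the difference turned sign, in WAT 0.000397 for Gatm, -0.00359 for Gamt, 0.000861 for Ckb, -1.05e-05 for Ckmt1 (first probe set), -9.31e-05 for Ckmt1 (second probe set) and -9.87e-07 for Ckmt2. Without the 4 WAT arrays set apart for male tract genes the difference turned sign, in WAT 9.43e-05 for Gatm, -0.00116 for Gamt, 0.000132 for Slc6a8 (first probe set), 0.00127 for Ckb, -2.47e-05 for Ckmt1 (first probe set) and -0.000158 for Ckmt1 (second probe set). Without the 4 BAT arrays highest in muscle markers the difference turned sign, in BAT -0.00025 for Gatm, 2.66e-05 for Ckb and 2.17e-06 for Ckmt1 (first probe set). With the mouse number as a block only numbers found in both groups were used, so water mice 1 and 3 were left out. In BAT these had the highest Ckmt2 scores of the water mice. In this run -4.35e-06 for Ckmt2 in liver and 0.0762 for Ckmt2 in BAT turned sign. So did -8.69e-07 for Slc6a8 (second probe set) and -1.4e-06 for Ckmt2 in WAT. Whether the block or the mice left out turned them was not tested, and the block run changed no call. The numbers do not pair the mice, since deviations of equally numbered mice correlated at -0.20 to 0.15 and 1 of 15 correlated best with its own number. For BAT minus WAT, Ckmt2 passed under quantile normalization (0.31, adjusted p = 0.0369), with centring (0.409, adjusted p = 0.0027), without the block of mice (0.275, adjusted p = 0.0485) and without the 3 water mice highest in muscle markers (0.0618, adjusted p = 0.00484). Nearly all probe sets passed in these 4 runs, so these passes are not read as a result. With centring Ckmt1 (second probe set) was no longer called for BAT minus WAT, at -0.000286 (adjusted p = 0.628), against -0.135. With 1 mouse left out, ranges that crossed 0 were in liver -7.08e-06 to 5.38e-06 for Ckmt2; in BAT -0.000174 to 0.00164 for Gatm, -3.46e-05 to 9.64e-06 for Gamt, -1.19e-06 to 5.85e-06 for Slc6a8 (second probe set), -0.000143 to 4.45e-05 for Ckb, -3.06e-06 to 1.5e-06 for Ckmt1 (first probe set) and -7.13e-07 to 3.06e-06 for Ckmt1 (second probe set); in WAT -0.000632 to 0.000213 for Gatm, -0.00463 to 0.0056 for Gamt, -8.67e-06 to 2.68e-05 for Slc6a8 (second probe set), -0.00347 to 0.000764 for Ckb, -1.5e-05 to 1.93e-05 for Ckmt1 (first probe set), -0.000142 to 0.000169 for Ckmt1 (second probe set) and -9.88e-07 to 1.48e-06 for Ckmt2.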
